A study of Rattus norvegicus with 24 samples.

Results

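Cadherins and protocadherins were examined in rat liver as the non-control array probes whose gene name began with Cdh and a number, or with Pcdh. This rule selected 82 of 30367 probes, covering 74 of 19958 gene names. Liver RNA came from 24 male Wistar rats fed for 42 days, with 8 rats in each of 3 groups. ChGENE rats received a diet with 1% cholesterol and 5% lyophilised Geneva kiwifruit (Actinidia arguta), and ChHAYW rats the same diet with 5% lyophilised Hayward kiwifruit (Actinidia deliciosa). Ch rats received the cholesterol diet alone. Every group therefore carried the cholesterol load, and rats on a plain diet were not analysed here. Ages of the animals were not given in the sources used here. Each rat's RNA was hybridised to 1 one-colour Agilent array, and all 8 arrays of 1 diet lay together on 1 slide. An effect of the slide therefore cannot be told apart from that of the diet. In whole liver, fewer cells of a type and less RNA per cell cannot be told apart either.

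Cadherins are transmembrane proteins that bind like molecules on a neighbouring cell when calcium is present. Classical cadherins anchor to actin through catenins and hold epithelial, endothelial and mesenchymal cells together. Protocadherins have different cytoplasmic ends. Members such as Pcdh7 are separate genes, whereas the alpha, beta and gamma protocadherins lie in a row on 1 chromosome. In the alpha and gamma groups each gene has its own large variable exon, which is spliced to 3′ exons shared by the whole group. These clustered genes are known mainly for giving neurons distinct surface identities, while in liver Cdh1 (E-cadherin) and Cdh2 (N-cadherin) join hepatocytes and Cdh5 (VE-cadherin) joins endothelial cells.

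The results turn on a few of the 60-base probes, printed here 5′ to 3′ as given in the scanner files, with positions in rat build rn4 and each on the strand named. The 2 Pcdh7 probes are shown because only the first was called, while the second was above background in 4 rats, and the capitals mark the stop codon that ends the second one in a reading frame otherwise free of stops. The Cdh24 probe carried the other difference between diets. The probe annotated as Pcdhgc5 lay past 15 other gamma probes, and its letters are those of the constant end that all gamma protocadherin transcripts share, so its signal cannot be credited to Pcdhgc5 alone.
Pcdh7, A_64_P247541, chr14:57320712-57320771, minus strand: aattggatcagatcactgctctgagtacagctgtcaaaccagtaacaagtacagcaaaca
Pcdh7, A_64_P057106, chr14:56609039-56609098, minus strand: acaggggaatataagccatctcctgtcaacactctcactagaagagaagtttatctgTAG
Cdh24, A_64_P033954, chr15:32710630-32710689, minus strand: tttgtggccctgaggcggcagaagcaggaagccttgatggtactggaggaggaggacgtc
Pcdhgc5, A_64_P065407, chr18:30752332-30752391, plus strand: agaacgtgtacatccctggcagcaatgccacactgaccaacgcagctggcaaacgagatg

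Signals are given as log2 of the processed signal minus the array's 75th percentile over non-control probes, so that 0 stands for that percentile. They are comparable between rats for 1 probe, not between probes. The 75th percentile itself ranged from 388 to 775 units in ChGENE, from 409 to 1049 in ChHAYW and from 188 to 653 in Ch. A median of 63.6% of probes were well above background in ChGENE, 63.1% in ChHAYW and 57.1% in Ch. All 8 hepatocyte markers, albumin among them, were above background on all 24 arrays, whereas none of 7 neural markers was. One feature of the arrays bears on every test. In 3 of 276 pairs of arrays, ChGENE 4 with ChGENE 5, ChHAYW 6 with ChHAYW 7 and Ch 1 with Ch 2, the 200 most variable probes differed by a median of 0.0983, 0.106 and 0.109 on the log2 scale. The closest of all the other pairs differed by 0.459 and the median pair by 0.897. Within these 3 pairs the difference over 14045 probes, with the spots of a probe averaged, had a robust SD of 0.151 to 0.171. Between 2 single spots of a probe on 1 array it was 0.0892 to 0.137. The 2 measures are not alike, since no spots were averaged for the latter. The labels name all 24 as biological replicates, and whether a pair shared an RNA was not tested. Tests are therefore given for the 16 arrays of 2 diets. The counts of members called and some single differences are given again with each pair averaged and counted once, which leaves 7 values a diet. Other tests, those of the gene lists among them, are given with 16 arrays only.

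Most cadherin and protocadherin probes were at or near background in liver. A probe was taken as above background on an array when at least 1 of every 2 of its spots was well above background by the scanner software. By that measure 10 member probes (12.2%) were above background on all 24 arrays, 58 (70.7%) on some and 14 (17.1%) on none. Over all probes tested the shares were 46.3%, 37.1% and 16.6%. On a single array between 24 and 38 members were above background in ChGENE, between 23 and 32 in ChHAYW and between 15 and 28 in Ch. The lowest count, 15, was on Ch 4, the array with the lowest 75th percentile (188). In ChGENE the dimmest array, ChGENE 2 (388), also had the fewest members of its diet, 24, and the brightest, ChGENE 1 (775), had 35. In ChHAYW the brightest arrays, ChHAYW 7 and ChHAYW 6 (1049 and 917), which are a close pair, had 23 members each, the fewest of their diet. The dim array ChHAYW 3 (409) had 28. The part of brightness in these counts was not tested.

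**Figure D1:**
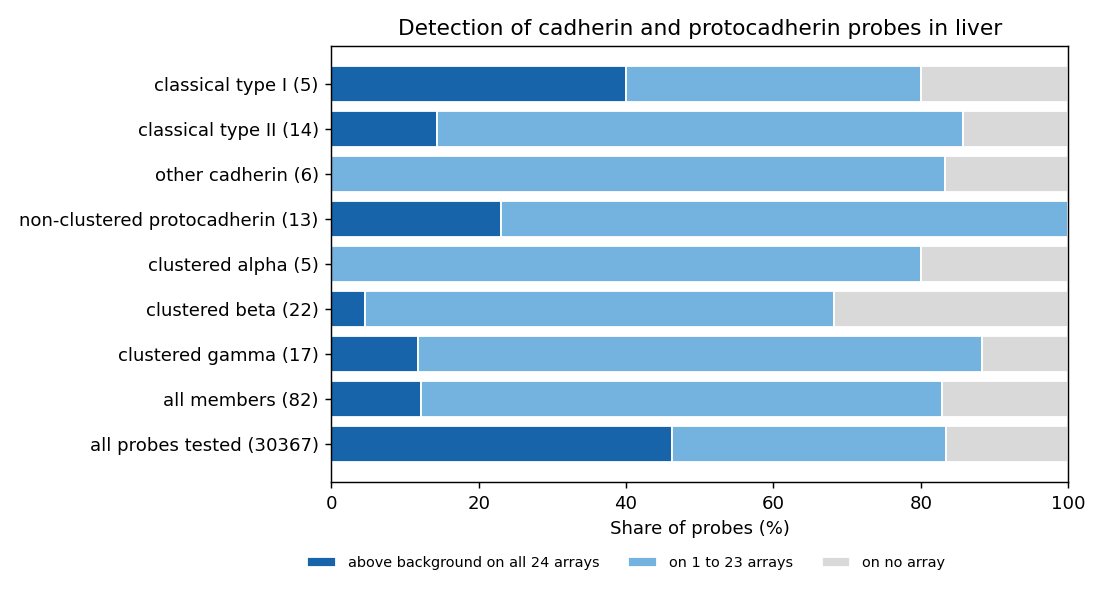
Share of probes (x axis, percent) above background on all 24 arrays, on 1 to 23 arrays or on no array, for each subfamily with its number of probes in parentheses. All 24 arrays were reached by 12.2% of members, against 46.3% of all probes tested.

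Among the classical cadherins, 2 of 5 type I genes and 2 of 13 type II genes had a probe above background on all 24 arrays. Type I was represented by Cdh1 and Cdh2, and type II by Cdh5 and Cdh24. Cdh3 (P-cadherin) was above background on 8 arrays, Cdh4 (R-cadherin) on 1 and Cdh15 (M-cadherin of muscle) on none. Cdh20 passed on 19 arrays, while the other type II genes passed on 5 or fewer. Of the remaining cadherins, Cdh13 (T-cadherin, which is anchored by a lipid and receives adiponectin) passed on 22 arrays at 1 of its 2 probes and Cdh17 (liver-intestine cadherin) on 17. Cdh16 (kidney cadherin) passed on 4, Cdh26 on 1 and Cdh23 of the inner ear on none.

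All 10 non-clustered protocadherin genes passed on at least 2 arrays at 1 probe. Pcdh17, Pcdh18 and Pcdh20 passed on all 24, Pcdh1 on 23, Pcdh12 (an endothelial protocadherin) on 17 and Pcdh7 on 13. Pcdh8, Pcdh9, Pcdh11x and Pcdh19 passed on 2 to 4.

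The clustered genes were read along rn4 chromosome 18, from 29663888 to 29927211 for the 5 alpha probes, 30013379 to 30329773 for the 22 beta probes and 30571166 to 30754046 for the 17 gamma probes. The median probe passed on 1 array in the alpha group, 2 in the beta group and 3 in the gamma group. A few probes stood out between neighbours that did not. The last alpha probe, annotated as Pcdhac2, passed on 21 arrays, whereas Pcdha1, Pcdha2, Pcdha3 and Pcdha13 passed on 1 or none. Array annotation gave no exons, and whether that probe reads Pcdhac2 alone or the end shared by the alpha genes was not tested. Pcdhb10 passed on all 24 arrays and Pcdhb17 on 22, while the probes on either side of Pcdhb10, for Pcdhb9 and Pcdhb11, passed on 0 and 1. Pcdhga2, Pcdhga4, Pcdhgb2 and Pcdhgb5 passed on 20 to 23 arrays. The last 2 gamma probes, annotated as Pcdhgc5 and Pcdhga7, passed on all 24, but both lie in the shared end of the cluster and not in the variable exon of either gene.

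Pcdhga7 had 2 probes that behaved differently. The probe at the far end of the cluster (chr18:30753987-30754046) lay 1595 bases past the Pcdhgc5 probe printed above, and its annotation listed transcripts of 4 genes, Pcdhga5, Pcdhga7, Pcdhga9 and Pcdhga12. No other member probe listed more than 1 gene. The other Pcdhga7 probe lay at chr18:30626746-30626805, between the probes of Pcdhga5 and Pcdhga8, and was above background on 1 array. The signal under the name Pcdhga7 on all 24 arrays was therefore that of a probe annotated to several gamma genes. The Pcdhgc5 probe lists 1 gene but also reads the constant end common to the gamma genes. Pcdhga5, Pcdhga9 and Pcdhga12 passed on 1, 9 and 3 arrays at their own probes.

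**Figure D2:**
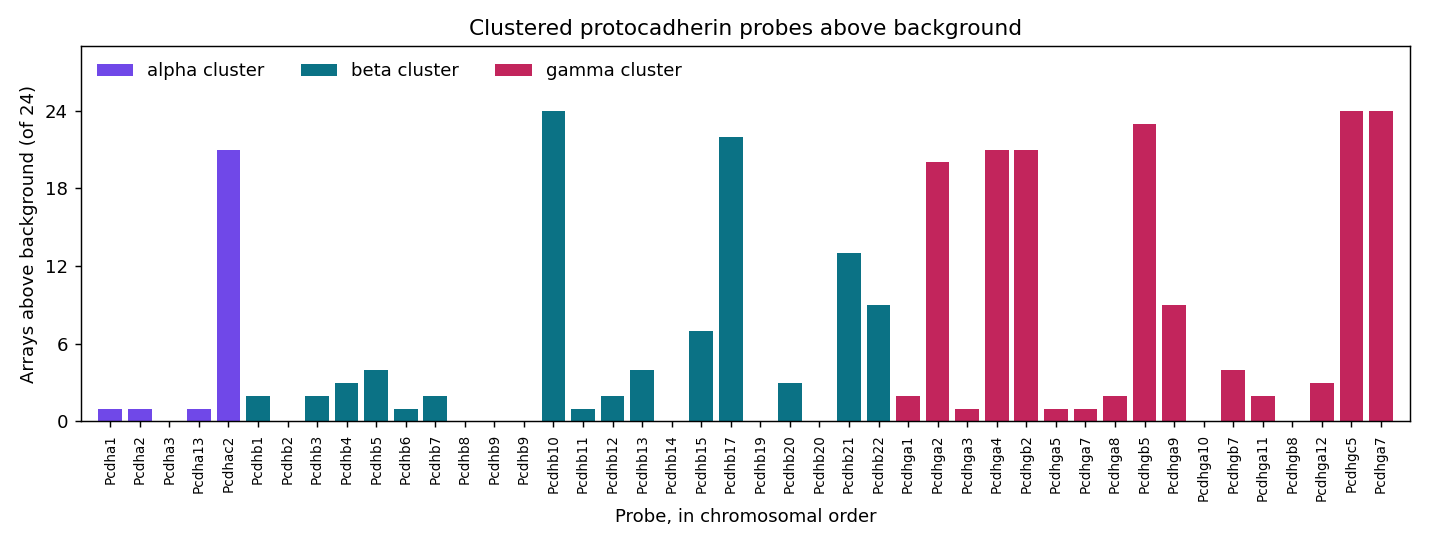
Number of the 24 arrays (y axis) on which each clustered protocadherin probe was above background, with the probes in chromosomal order (x axis) and coloured by cluster. Isolated probes such as Pcdhb10 (24 arrays) stand between neighbours at 0 and 1, and the last 2 gamma probes, in the shared end, reach 24.

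The first comparison asked which members differed between ChGENE and Ch rats. With a Benjamini-Hochberg adjusted p below 0.05 over all probes and a fold change of at least 1.3 in limma, 2 of 82 member probes (2.44%) were called, Pcdh7 as higher and Cdh24 as lower in ChGENE. Over all 30367 probes 97 were called (0.319%), 21 of them higher (0.0692%) and 76 lower (0.25%). With each close pair of arrays counted once, no member was called, nor was any probe on the array (0%), and the smallest adjusted p among members was 0.0951. At an unadjusted p below 0.05 with the same fold change, 25 members passed with 16 arrays, which is 30.5% against 24.6% of all probes, and 26 passed with pairs averaged, against 23.1% of all probes. Of the 25, 21 were lower in ChGENE (25.6% of members, against 21.1% of all probes) and 4 were higher (4.88%, against 3.47%), namely Pcdh7, Pcdhgb2, Pcdhga9 and the second Pcdh17 probe, of which Pcdhga9 is named only because its values had been seen.

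Pcdh7, a protocadherin first described in brain and heart, was read by 2 probes 711.6 kb apart that list a common transcript. At A_64_P247541 the ChGENE rats ranged from -4.58 to -2.73 with a median of -3.60, the ChHAYW rats from -5.97 to -2.70 with a median of -4.42, and the Ch rats from -5.77 to -4.31 with a median of -4.90. The groups overlapped through 1 ChGENE rat, ChGENE 2, which lay within the Ch range. The means were -3.55 ± 0.58 in ChGENE and -4.94 ± 0.53 in Ch (SD, n = 8 each), a difference of 1.39 ± 0.27 (SE, adjusted p = 0.0448). The probe was above background in 7 ChGENE, 5 ChHAYW and 1 of the Ch rats, so that most of the Ch values are those of a spot not distinguished from background and no fold change is given. Before scaling, its median signal was 62.4 units in ChGENE, 28.4 in ChHAYW and 12.01 in Ch.

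The call for Pcdh7 was close to the threshold. With each close pair averaged the difference was 1.37 (adjusted p = 0.0951). After normexp background correction, which adds an offset of 50 units before logs are taken, it was 0.03 (adjusted p = 0.886). The call was kept when ChGENE 2, Ch 3, Ch 4 or Ch 5 was left out and was lost without any one of the other 12 rats (adjusted p from 0.0558 to 0.0904). The probe stood on the array as a single spot.

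The second Pcdh7 probe, A_64_P057106, was near background. It ranged from -6.57 to -4.62 in ChGENE (median -5.58), from -6.79 to -4.91 in ChHAYW (median -5.56) and from -6.40 to -4.75 in Ch (median -5.85). It was above background in 3 ChGENE, 1 ChHAYW and 0 of the Ch rats. The difference of ChGENE from Ch was 0.22 (95% interval -0.36 to 0.81, adjusted p = 0.645). No Ch rat was above background at this probe and 1 was at the first, so the Ch values of both are mostly those of background. The difference between the probes was not tested.

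Cdh24, a type II classical cadherin that binds catenins, moved the other way. It was above background on all 24 arrays. ChGENE rats ranged from -4.42 to -3.41 with a median of -3.88, ChHAYW rats from -4.63 to -2.56 with a median of -3.75, and Ch rats from -3.23 to -1.59 with a median of -2.78. Every ChGENE rat was below every Ch rat, whereas the ChHAYW rats overlapped both groups. Cdh24 was the 1 member (1.22%) whose ChGENE and Ch ranges did not overlap, against 0.692% of all probes. The means were -3.90 ± 0.39 in ChGENE and -2.59 ± 0.62 in Ch (SD, n = 8 each), a difference of -1.31 ± 0.25 (SE, adjusted p = 0.0448), or 2.47-fold lower.

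For Cdh24 too the call depended on single rats and on scaling. With any 1 rat left out the difference itself lay between -1.40 and -1.16. With each close pair averaged the difference was -1.38 (adjusted p = 0.0951). The call was kept without ChGENE 2, Ch 1, Ch 3, Ch 4 or Ch 5 and was lost without any one of the other 11 rats (adjusted p from 0.0602 to 0.0949). Scaled to the spike-in probes, which put the median of all probes 0.30 higher in ChGENE than in Ch, the difference was -0.84 (adjusted p = 0.0916). The call was kept with quantile normalisation (-1.36, adjusted p = 0.0408) and with cyclic loess (-1.35, adjusted p = 0.0332). Before scaling, the signal ranged from 33.2 to 69.7 units in ChGENE (median 38.4), from 42.3 to 83.0 in ChHAYW (median 55.1) and from 39.5 to 92.2 in Ch (median 72.0), so the ranges overlapped. Ch 4, the rat with the highest scaled Cdh24 value, had the dimmest array of the study, and the part of array brightness was not tested.

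**Figure D3:**
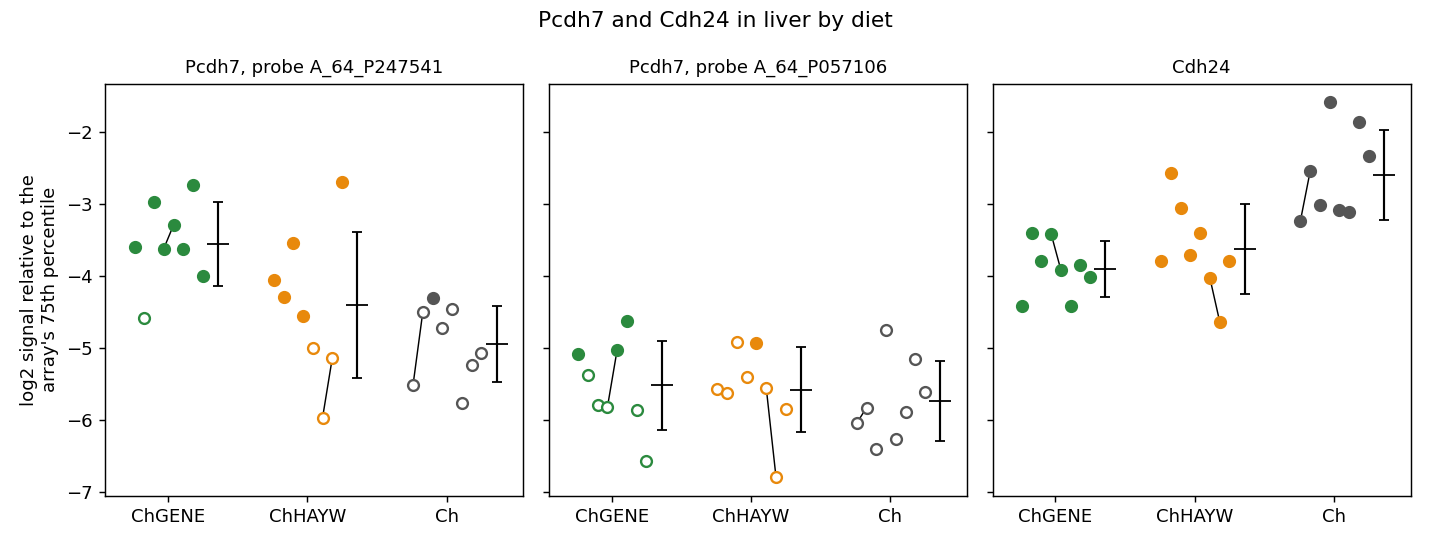
Scaled log2 signal (y axis) of both Pcdh7 probes and of Cdh24 in each rat by diet. Filled points were above background and open points were not, black lines join the 3 close pairs of arrays, and the bars give the mean ± SD of 8 arrays. At A_64_P247541, 7 of 8 ChGENE points are filled against 1 of 8 Ch points, and for Cdh24 all ChGENE points lie below all Ch points.

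Members that textbooks place in liver cells gave smaller differences, none of them called. Cdh1 averaged 2.64 ± 0.67 in ChGENE, 2.57 ± 0.40 in ChHAYW and 2.63 ± 0.28 in Ch (SD, n = 8 each), with differences of 0.01 for ChGENE against Ch and -0.06 for ChHAYW against Ch. Cdh2 averaged 0.78 ± 0.23 in ChGENE, 0.45 ± 0.33 in ChHAYW and 0.81 ± 0.40 in Ch. Its difference was -0.03 for ChGENE against Ch (adjusted p = 0.929) and -0.36 for ChHAYW against Ch (adjusted p = 0.228). Cdh5 averaged -1.90 ± 0.25 in ChGENE, -2.09 ± 0.44 in ChHAYW and -1.85 ± 0.43 in Ch, with a difference of -0.05 for ChGENE and -0.24 for ChHAYW against Ch. All 3 genes overlapped in every pair of diets.

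The same held for the other members above background in most rats. Pcdh12 differed by -0.14 in ChGENE and -0.32 in ChHAYW against Ch, Pcdh1 by 0.22 and 0.32, and Cdh13 by 0.17 and -0.15, for ChGENE first and against Ch. Pcdhb10 differed by -0.10 and -0.24, the shared-end probe under the name Pcdhga7 by 0.11 and -0.19, the shared-end probe under the name Pcdhgc5 by -0.41 and -0.64, and Pcdh20 by -0.24 and -0.73, in the same order. Pcdhga2 differed by 0.23 and 0.14 and Pcdhgb5 by -0.30 and -0.06. The smallest adjusted p among these was 0.185, for the Pcdhgc5 probe in ChHAYW.

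Pcdhgb2 and the second Pcdh17 probe were above background in all 8 ChGENE rats but in 5 of 8 Ch rats, so that some of their Ch values are those of background. Pcdhgb2 ranged from -3.94 to -2.43 in ChGENE (median -3.25), from -4.76 to -3.09 in ChHAYW (median -3.72) and from -6.54 to -3.17 in Ch (median -4.08). It differed by 1.09 for ChGENE against Ch (adjusted p = 0.0786) and by 0.58 for ChHAYW against Ch (adjusted p = 0.325). With the close pairs averaged these differences were 1.07 (adjusted p = 0.134) and 0.63 (adjusted p = 0.409) in limma. The groups overlapped, and Ch 8 lay far below the other Ch rats. Pcdh17, whose protein is found at neuronal contacts, differed by 0.97 for ChGENE against Ch (adjusted p = 0.105) at A_44_P684740. With the close pairs averaged this difference was 0.82 (adjusted p = 0.188) in limma. Probe A_44_P684740 lies at chr15:66481885-66481944 on the plus strand. At A_64_P054606 (chr15:66480921-66480980), above background on all 24 arrays, Pcdh17 differed by -0.05 (adjusted p = 0.872).

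The second comparison set ChHAYW against Ch. No member was called by limma, nor was any of the 30367 probes (0%), and the smallest adjusted p among members was 0.11. The methods' t-test also called 0, whereas limma with array weights called 21 members (25.6%), all lower in ChHAYW, against 18.8% of all probes. With pairs averaged the count of members was again 0 and the smallest adjusted p was 0.222, and 20 members passed at an unadjusted p, against 18% of all probes. At an unadjusted p below 0.05 with the fold change, 25 members passed with 16 arrays, all of them lower in ChHAYW. These were 30.5% of members. Of all probes 22.8% passed in either direction and 19.7% as lower. Among the 10 members above background on all 24 arrays, Cdh24 had the lowest difference, at -1.03 ± 0.29 (SE, adjusted p = 0.11), followed by Pcdh20 and the shared-end probe under the name Pcdhgc5. Pcdh7 at A_64_P247541 differed by 0.54 (95% interval -0.25 to 1.33).

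The third comparison, ChGENE against ChHAYW, called 0 of 82 members and 2 of all probes (0.00659%), and the smallest adjusted p among members was 0.464. With pairs averaged it called 0 of both, and 1 member passed at an unadjusted p, against 4.07% of all probes. At an unadjusted p below 0.05 with the fold change 4 members passed with 16 arrays, Pcdh7, Cdh11 and Pcdhb12 as higher and Cdh16 as lower in ChGENE (Pcdhb12 and Cdh16 named after their values were seen), which is 4.88% against 5.93% of all probes. For Pcdh7 the difference was 0.85 (95% interval 0.04 to 1.66, adjusted p = 0.578) and for Cdh24 it was -0.28 (95% interval -0.80 to 0.24, adjusted p = 0.828). Neither gene was thus shown to differ between the 2 kiwifruit diets. ChGENE and ChHAYW were set against the same Ch rats.

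Across the members the differences from Ch followed detection. In ChGENE against Ch the median difference was -0.05 for the 10 members above background on all arrays, -0.23 for the 58 above it on some and -0.55 for the 14 above it on none. Over all probes of those classes the medians were -0.05, -0.17 and -0.67. In ChHAYW against Ch the member medians were -0.28, -0.37 and -0.63, against -0.04, -0.23 and -0.65 over all probes. All 14 members above background on no array were lower than in Ch in both comparisons, as were 4956 of 5056 such probes in ChGENE and 4988 of 5056 in ChHAYW. In ChGENE against ChHAYW the member medians were 0.21, 0.09 and 0.03, against -0.01, 0.03 and -0.02 over all probes. The sign of the median over all 82 members, -0.29 for ChGENE and -0.40 for ChHAYW against Ch, turned with the scaling. After quantile normalisation it was -0.01 in both, as was the median of all probes. After scaling to the spike-in probes it was 0.17 and 0.25, against 0.30 and 0.47 over all probes.

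**Figure D4:**
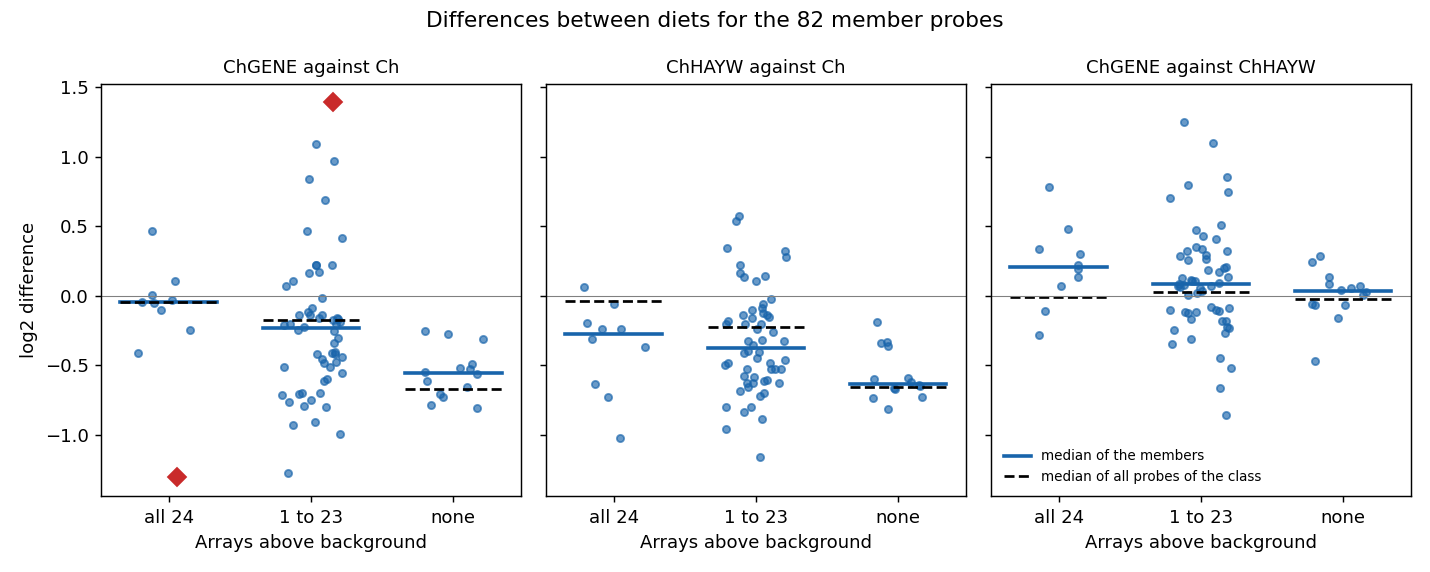
Log2 difference (y axis) of each of the 82 member probes in the 3 comparisons, by the number of arrays on which it was above background (x axis). Blue lines give member medians, dashed lines the medians of all probes of the class, and red diamonds the 2 called probes, Pcdh7 (1.39) and Cdh24 (-1.31) in ChGENE against Ch. The 14 undetected members all lie below 0 in the comparisons with Ch.

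Several members differed widely between rats of 1 diet. Among the 24 member probes above background on 12 or more arrays, the median SD within diets was 0.49, against 0.36 for all 18273 such probes. In 3 of the 24 (12.5%), Cdh17, Pcdhac2 and Pcdh18, that SD was above 1, against 1.87% of all such probes. The 2 sets are unlike in detection. Of the 24 members 10 were above background on all 24 arrays, against 14045 of the 18273 probes. The part of detection in the spread was not tested.

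Cdh17, which in the rat is made by hepatocytes as well as intestinal epithelium, had the widest spread. It ranged from -6.12 to 2.52 in ChGENE (median -1.42), from -6.06 to 2.99 in ChHAYW (median -1.87) and from -5.45 to 1.93 in Ch (median -1.96). It was above background in 5 ChGENE, 6 ChHAYW and 6 of the Ch rats, and each diet held rats at both ends of the range. The diets therefore overlapped throughout, with a difference of 0.42 for ChGENE and 0.35 for ChHAYW against Ch (adjusted p = 0.882 and 0.889). The close pairs behaved unequally here. ChGENE 4 and 5 differed by 0.0366, ChHAYW 6 and 7 by 0.714 and Ch 1 and 2 by 2.29. Of the 5 other intestinal markers measured, Fabp2 was above background on all 24 arrays, Lgals4 on 4, Muc13 on 2, Cdx2 on 1 and Vil1 on none. Their summed level ranged from 2.29 to 14.1 in ChGENE, 1.62 to 3.18 in ChHAYW and 0.733 to 6.33 in Ch, in multiples of the 75th percentile. It was highest in ChGENE 3, where Cdh17 was at -5.83, and was 3.06 in ChHAYW 8, where Cdh17 was highest. The part of these markers in the Cdh17 values was not tested.

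Pcdhac2, read at the last alpha probe, ranged from -4.96 to -1.12 in ChGENE (median -3.54), from -5.71 to -1.24 in ChHAYW (median -2.33) and from -5.10 to -1.31 in Ch (median -2.96). It spanned more than 3 log2 units in each diet, and the diets overlapped. It was singled out for this spread after its values were seen. Whether the probe reads Pcdhac2 alone or the shared alpha end was not tested.

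Pcdh18 and Cdh11 were high in the same 2 ChGENE arrays. Pcdh18 was at 1.54 and 1.40 in ChGENE 4 and 5 and between -2.22 and -0.97 in the other ChGENE rats. In ChHAYW it ranged from -2.03 to -0.74, and in Ch it was 2.27 in Ch 8 and between -2.47 and -1.01 in the rest. Cdh11 (OB-cadherin, of fibroblasts and activated stellate cells) was at -3.04 and -3.06 in ChGENE 4 and 5 at A_44_P961744, where it lay between -7.11 and -5.30 in the other ChGENE rats, between -7.23 and -5.98 in ChHAYW and between -7.00 and -5.38 in Ch. Its second probe gave -2.68 and -3.06 in ChGENE 4 and 5, and was above background in no other rat. ChGENE 4 and 5 are one of the close pairs of arrays and count as 1 value where pairs are averaged.

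The second Pcdh17 probe was also highest in those arrays, at -1.91 and -2.0, with the other ChGENE rats between -4.39 and -2.89. Stellate and fibroblast markers, 7 of 9 above background on all arrays and none of them below it throughout, summed to 13.9 and 14.8 in ChGENE 4 and 5. The sum ranged from 8.60 to 14.8 in ChGENE, from 9.00 to 13.3 in ChHAYW and from 8.81 to 12.3 in Ch, and in Ch 8, where Pcdh18 was highest, it was 9.43. It was also 13.6 in ChGENE 1 and 13.3 in ChHAYW 8. In those arrays Cdh11 at A_44_P961744 was -6.42 and -6.96, not above background, and Pcdh18 was -0.97 and -0.74. Markers of some other cell types, but not of all, were also high in ChGENE 4 and 5. Kupffer and macrophage markers summed to 81.2 and 81.8, the highest of all 24 arrays, over ranges of 18.7 to 81.8 in ChGENE, 22.2 to 65.3 in ChHAYW and 20.3 to 48.0 in Ch. Neural markers, none of 7 above background on all arrays and 3 on no array, were likewise highest there, at 0.383 and 0.358. Endothelial markers ranked 3 and 4 and lymphocyte markers 5 and 4 of the 24. Intestinal markers ranked 6 and 7, cholangiocyte markers 8 and 6, pancreas markers 19 and 9 and hepatocyte markers 22 and 11. Across the 200 most variable probes each of these arrays differed from every array but the other by a median of 1.646 or more. The part of any of these cells in the values was not tested. With the close pairs averaged, the Cdh11 difference for ChGENE against Ch was 0.48, where it had been 0.84 with 16 arrays, and that of Pcdh18 was 0.09, where it had been 0.47.

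**Figure D5:**
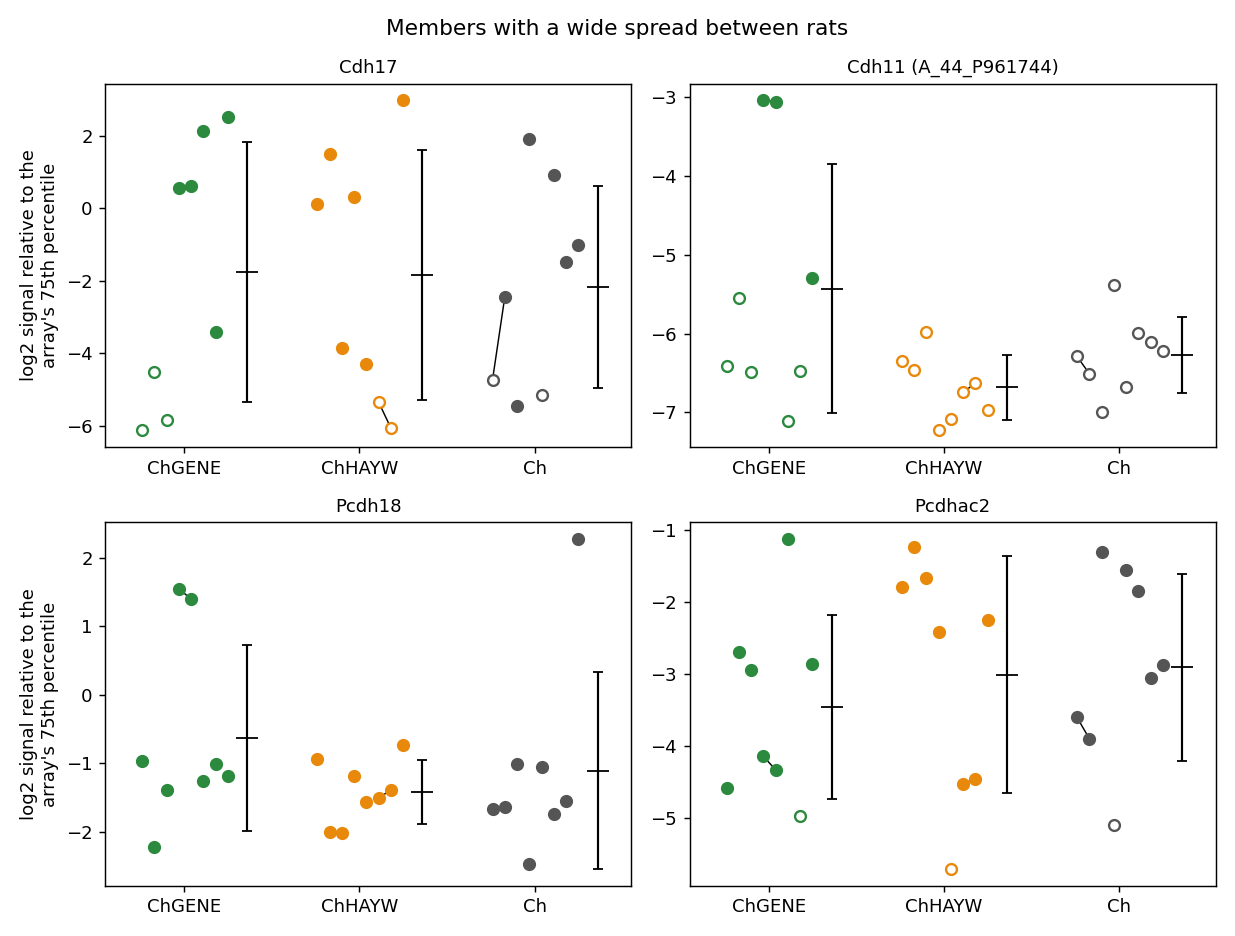
Scaled log2 signal (y axis) of Cdh17, Cdh11, Pcdh18 and Pcdhac2 in each rat by diet, with points, lines and bars as in the plot of Pcdh7 and Cdh24. Cdh17 runs from -6.12 to 2.99 with high and low rats in each diet, and Cdh11 is high in ChGENE 4 and 5.

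Genes that work with cadherins were taken as 5 lists, and limma called none of their members in any comparison. Of 16 adherens junction partners, 9 were above background on all 24 arrays, and at an unadjusted p below 0.05 with the fold change 1 passed for ChGENE and 3 for ChHAYW against Ch, where 24.6% and 22.8% of all probes did. Their median difference was -0.08 for ChGENE and -0.23 for ChHAYW against Ch, where the median over all probes was -0.16 and -0.18. Ctnnb1 (beta-catenin) differed by 0.30 for ChGENE against Ch (adjusted p = 0.443), Ctnna1 (alpha-catenin) by -0.02, Ctnnd1 (p120-catenin) by 0.01 and Jup (plakoglobin) by -0.08. Of these, Ctnnb1, Ctnna1 and Jup carry the link between cadherin and actin or intermediate filaments. All of these catenins were above background in every rat.

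In the other lists 0 of 13 desmosome genes, 0 of 17 other cadherin superfamily genes, 0 of 12 genes of cadherin cleavage and turnover and 0 of 7 repressors of Cdh1 were called. For ChGENE against Ch, 4, 6, 0 and 2 of them passed at an unadjusted p below 0.05, and for ChHAYW against Ch 2, 5, 1 and 3 did, again beside 24.6% and 22.8% of all probes. The methods' t-test with Benjamini-Hochberg adjustment also called 0 in each list. The medians for ChGENE against Ch were -0.25, -0.45, 0.04 and -0.26, and only 4 desmosome and 2 superfamily genes were above background on all arrays. The lowest adjusted p in these lists was 0.0608, for ChGENE against Ch. It was shared by Fat4, an atypical cadherin of the Hippo pathway, at 0.67, Snai1, a repressor of Cdh1, at 0.62, the repressor Twist2 at -0.73 and the desmosomal cadherin Dsc3 at -0.70. Fat4 and Snai1 were above background on 23 arrays, Dsc3 on 2 and Twist2 on none, and all 4 were picked out after their values were seen.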

How the data were processed

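Total RNA from the liver of each rat was hybridised to a one-colour Agilent rat array with 60-base probes, whose annotation gives rn4 positions. The deposited files hold the scanner's processed signal intensity for each spot, which the authors obtained with Feature Extraction after background subtraction and left unscaled between arrays. The series' own values were the same numbers at all 1511424 spots.

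The log2 of the deposited intensities was computed after outlier spots had been left out and spots of a probe averaged, and each array's 75th percentile over non-control probes was subtracted. All spots were outliers in 45 of 728808 probe values, and 0 values were saturated. limma 3.58.1 in R 4.3.3 (lmFit and eBayes, with data.table, version 1.17.8) was fitted to the 16 arrays of each pair of diets over 30367 probes. A probe was called at a Benjamini-Hochberg adjusted p below 0.05 and a fold change of at least 1.3, the limits that the study's methods use with a t-test. The fit was tested on simulated data.

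The members and lists were chosen with earlier results of these data known. The text names the probes called in any comparison, all probes of Pcdh7 and Cdh24, the genes above background on all 24 arrays, members placed in liver cell types by textbooks at their brightest probe, and the 3 highest and 3 lowest differences per comparison among probes above background in all 8 rats of the higher group. Of the textbook list, Pcdhgc3 was matched by no member probe. Of the 82 members, 61 were matched to RefSeq (GRCr8) by accession for gene names. Array annotation did not give exons. Replicate numbers are shared between diets but name different rats. Same-numbered rats did not deviate together, with 2 of 8 correlations above 0.1 for ChGENE and Ch. Alternatives to the scaling, background correction, test, samples and filter were tried, and averaging the close pairs of arrays was added after the data had been seen. The number of arrays limits the precision.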

Additional observations from a re-analysis of the deposited data

Results flagged for a closer look

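Among 21 named probes, 63 sets of 8 rats (1 probe in 1 diet) were screened for a single rat whose gap to its nearest neighbour was too large a share of the range by Dixon's 95% limit for 8 values. Chance marks about 1 in 20 such sets, and 4 were marked. Pcdh18 was at 2.27 in Ch 8, where the other Ch rats lay between -2.47 and -1.01. Pcdhgb2 was at -6.54 in the same rat, not above background, where the other Ch rats lay between -4.63 and -3.17. Pcdhgb5, a gamma protocadherin, was at -0.22 in Ch 6, where the other Ch rats lay between -3.84 and -2.85. It was also at -3.67 in ChHAYW 1, where the other ChHAYW rats lay between -3.04 and -2.53. None of these rats belongs to a close pair of arrays, and no cause was tested.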

How the results depend on the processing

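For ChGENE against Ch, 2 members were called by limma. The count was also 2 with outlier spots kept, with the methods' t-test and with trend and robust eBayes. These were 2.44% of members, against 0.31%, 0.807% and 0.445% of all probes. With dim probes left out (28 members tested) it was again 2, or 7.14% against 0.739% of the probes kept. A probe was kept there if above background on at least 4 arrays of either diet. Pcdh7 was kept only through ChGENE (7 arrays, against 1 in Ch), the diet where it was higher. That setting therefore lends its call no support. The count was 1 (1.22%) with quantile normalisation and with cyclic loess, Cdh24 in both, and 1 with spike-in scaling, Pcdh7. Of all probes 0.211%, 0.237% and 0.224% were called there. It was 16 with median scaling (2 higher, 14 lower), 19.5% of members against 15.2% of all probes. Array weights gave 10 (12.2% against 12.1%) and all 24 arrays in 1 fit gave 10 (12.2% against 9.43%). Normexp gave 44 (0 higher, 44 lower), 53.7% against 33.6%. It was 0 with the close pairs averaged, added after seeing the data. It was 0 with the replicate number as a block, where the count over all probes was 4 and had been 97, and replicate numbers did not pair the rats. Leaving out 1 rat gave 0 to 20 members, with 0 in 11 of 16 cases. It was 1 without Ch 1 (1.22%, against 0.0856% of all probes). It was 9 without ChGENE 2 (11%, against 10.3%) and 20 without Ch 3 (24.4%, against 16.3%). The counts over all probes there were 26, 3137 and 4957.

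For ChHAYW against Ch, 0 members were called in 10 of 13 other settings, but 11 with median scaling, 52 with normexp and 21 with array weights, all lower. These were 13.4%, 63.4% and 25.6% of members, against 10.7%, 37.8% and 18.8% of all probes. Leaving out 1 rat gave 0 to 18, with 18 without ChHAYW 3 and 13 without Ch 3, where the counts over all probes were 4588 and 3675. The shares were 22% and 15.9% of members, against 15.1% and 12.1% of all probes. For ChGENE against ChHAYW the count was 0 throughout. Over all probes, ChGENE against Ch had 97 calls, 64 with quantile normalisation, 68 with spike-in scaling, 245 with the methods' t-test, 2863 with all 24 arrays, 3676 with array weights, 4623 with median scaling and 10197 with normexp. ChHAYW against Ch had 0 calls, 2 with spike-in scaling, 1 with cyclic loess, 3240 with median scaling, 5703 with array weights and 11480 with normexp. ChGENE against ChHAYW had 2 calls, 18 with quantile normalisation, 17 with cyclic loess, 10 with median scaling, 11 with normexp, 19 with trend and robust eBayes, 62 with array weights, 8 with all 24 arrays, 23 with dim probes left out, 1 with the methods' t-test and 0 with spike-in scaling, the block or the pairs averaged. The Pcdh7 call was kept in 12 of 29 other runs and the Cdh24 call in 15 of 29. Of 1763 runs of the 61 differences of named probes that were not called, 12 became called. The cause of these changes was not tested. Signals near background limit the dim members.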
